A study of Mus musculus with 14 samples.

Results

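Induced and uninduced control hairpin cells at day 4 were compared in 4 libraries, 2 of each, out of 14 in the series. They were chosen by their titles alone, and no measured value entered the choice. All were made from KL974, a mouse acute myeloid leukemia (AML) line labelled Trp53R172H;shMll3;shNf1, which gives a missense allele of the tumor suppressor p53, a hairpin against Mll3 (Kmt2c in the count table), a histone methyltransferase, and a hairpin against Nf1, a brake on RAS. The cells grew in serum with murine IL3, IL6 and SCF and had been transduced with a lentiviral vector in which doxycycline switches on a short hairpin RNA (shRNA) together with blue fluorescent protein (BFP). The control hairpin, shRen713, is named for Renilla luciferase, a gene that mouse cells lack. Induced cells were BFP positive and uninduced cells BFP negative by cell sorting, and both had been in doxycycline for 4 days, so the genotype and the drug are shared by all 4 libraries. Values of induced and uninduced control cells at day 2, prepared in the same way, and of untreated control cells at day 0, whose labels name no sort, are set beside them. The model is 1 line. Whether BFP negative cells lacked the vector or carried it without expressing it cannot be told apart from the labels, so carriage of the vector may differ between the groups along with expression of the hairpin. The labels do not name separate cultures for the replicates; the p-values therefore reflect only how these libraries vary, and part or all of that may be technical.

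A short hairpin RNA is cut by the cell's own microRNA enzymes and loaded into Argonaute, where it directs the silencing of matching messenger RNAs, and a hairpin with no mouse target is used to show what the vector, the reporter and the processing of a hairpin do by themselves. Comparison of sorted positive and negative cells from 1 culture condition is a usual check that the reporter does not mark a different kind of cell. Myeloid leukemia lines grown in IL3 and SCF often keep features of progenitor, mast or red cells, and adult globin transcripts are a sensitive readout of small differences in red cell maturation.

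The deposited values are counts of reads per gene. Library totals were 3191961 and 2148243 counts in induced cells and 3663014 and 10271698 counts in uninduced cells at day 4, within a range of 913482 to 10271698 over the series. Of 53465 genes, 10791 had enough counts for testing by edgeR (quasi-likelihood, 1 model of all 14 libraries). A gene was called at an adjusted p under 0.05 (Benjamini-Hochberg over all tested genes), and levels are counts-per-million (CPM) scaled by trimmed mean of M values (TMM) factors unless whole-library CPM is named. The line carried high levels of the stem cell factor receptor Kit (483 and 498 whole-library CPM in induced cells, 500 and 501 whole-library CPM in uninduced cells). The red cell and mast cell regulators Gata1, Gata2 and Klf1 stood between 153 and 336 whole-library CPM in the 4 libraries. Cd34 had 0 counts in all 4 libraries. The mast cell markers were mixed. The IgE receptor chain Ms4a2 had 52.9 and 60.5 whole-library CPM in induced cells and 41.8 and 47.1 whole-library CPM in uninduced cells, and was not called. Il1rl1 had 229 and 200 whole-library CPM in induced cells and 186 and 216 whole-library CPM in uninduced cells. By contrast Fcer1a, the partner chain of Ms4a2, had at most 1 count in a library, Fcer1g at most 4 counts and Cpa3 at most 15 counts. The markers of other blood cells were at or near 0: 11 of 17 neutrophil genes and 16 of 18 lymphoid genes had no count in any of the 4 libraries, with summed whole-library levels of 0.313 and 0 CPM in induced against 0.546 and 1.36 CPM in uninduced cells for neutrophil genes, and 0.313 and 0.465 CPM in induced against 0 and 0.389 CPM in uninduced cells for lymphoid genes. For 18 macrophage and monocyte genes, of which 11 were at 0, the sums were 10.3 and 12.1 CPM in induced cells and 10.6 and 10.6 CPM in uninduced cells.

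After 4 days the induced and uninduced cells differed in 8 of 10791 tested genes, 0.0741% of them. Transcripts of Rapgef4, Il9r, Mettl9 and Egr1 were higher in induced cells (4 genes, 0.0371%), and those of the adult beta globin genes Hbb-bs and Hbb-bt and of Slc26a1 and Sec11c were lower (4 genes, 0.0371%). The greatest of these differences were 2.00-fold, for Rapgef4 and, in the other direction, Hbb-bt. DESeq2, run on the same genes, called 3 genes, Rapgef4, Il9r and Hbb-bs. The edgeR count was 3 without induced replicate 1, 3 without induced replicate 2, 6 without uninduced replicate 1 and 16 without uninduced replicate 2, with Rapgef4 and Hbb-bs called each time. At an unadjusted p under 0.05 edgeR counted 498 genes (4.61%). Both induced libraries stood above both uninduced libraries for 17.2% of tested genes and below both for 16.7%.

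**Figure D1:**
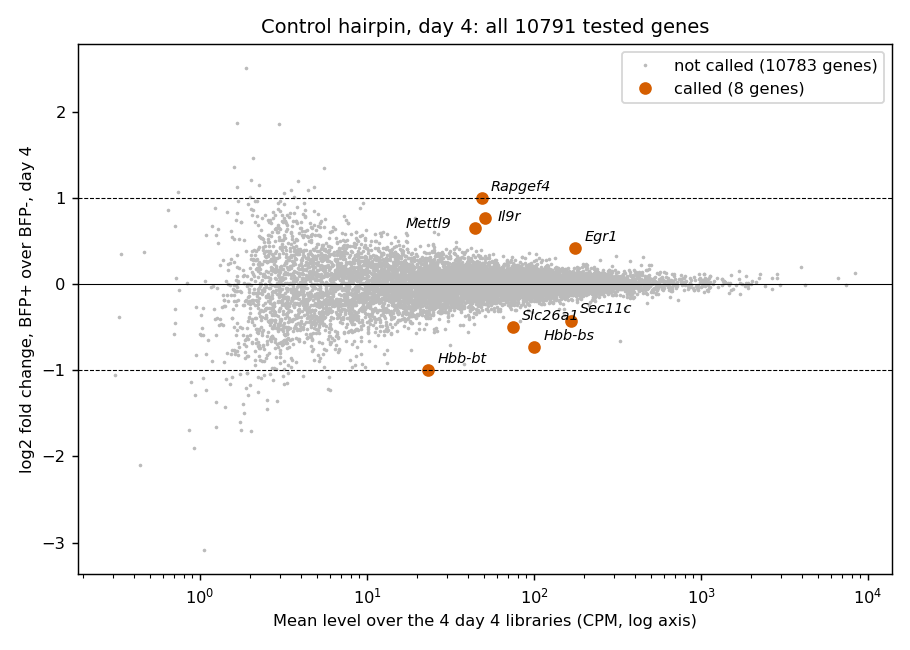
Log2 fold change of induced (BFP+) over uninduced (BFP-) control cells at day 4 (vertical axis) against the mean level over the 4 day 4 libraries in CPM (horizontal axis, log scale). Grey points are the 10783 genes not called, orange points the 8 called genes, and dashed lines mark 2-fold either way; the cloud narrows as the level rises, and the called genes lie between 0.42 and 1.00 on the log2 scale from 0.

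Rapgef4 encodes a guanine nucleotide exchange factor that activates the GTPase RAP when it binds cyclic AMP. It measured 63.6 and 66.7 CPM in induced cells against 29.8 and 33.8 CPM in uninduced cells, and the groups stood well apart. The log2 fold change was 1.00 ± 0.12 (edgeR adjusted p = 2.57e-07, 2 libraries a group). Here and below ± gives the SE of the model, whose spread is estimated over all 14 libraries and not from the compared ones alone. At day 2, in 4 other libraries, it measured 75.4 and 70.2 CPM in induced cells against 37.7 and 35.0 CPM in uninduced cells, a log2 fold change of 1.03 ± 0.14 (edgeR adjusted p = 1.31e-07), and the effects of the 2 days differed by -0.03 (95% interval -0.40 to 0.34). Untreated day 0 cells held less than either sorted population, with 24.1 and 23.4 CPM. The gene spans chr2:71981240-72257474 (GRCm38, plus strand), and 3 annotated antisense genes lie within it. Rapgef4os1 and Rapgef4os2 had at most 2 counts in a library, and Rapgef4os3 had 12 and 10 counts in induced cells against 8 and 22 counts in uninduced cells, a log2 fold change of 0.93 ± 0.43 that did not pass. Whether the counting used strand is not given in the sources, so reads of the antisense genes and of Rapgef4 cannot be told apart. Of 30 tested members of the cyclic AMP and RAP list 1 was called, Rapgef4 itself. At an unadjusted p under 0.05 there were 1 member higher and 2 lower, beside 4.61% of all tested genes in either direction, and the list's median was -0.01 on the log2 scale, beside 0.00 over all tested genes. Of the 2 lower members, the phosphodiesterase Pde4d, which breaks down cyclic AMP, had a log2 fold change of -0.30 and the adenylyl cyclase Adcy6, which makes it, one of -0.17, neither of them called (both singled out after their values were seen).

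Il9r encodes the chain of the interleukin 9 receptor that binds the cytokine, and it signals together with the common gamma chain Il2rg. It measured 59.8 and 69.0 CPM in induced cells and 38.8 and 36.7 CPM in uninduced cells, without overlap. The log2 fold change was 0.77 ± 0.12 (edgeR adjusted p = 7.07e-05), and without induced replicate 2 it was 0.68 and missed the threshold (adjusted p = 0.0632). At day 2 the levels were 101 and 87.9 CPM in induced cells and 54.4 and 50.1 CPM in uninduced cells (log2 fold change 0.89 ± 0.12, edgeR adjusted p = 1.95e-07). Of 15 tested cytokine receptor genes Il9r was the 1 called. Il2rg measured 58.9 and 49.4 CPM in induced cells and 61.8 and 57.1 CPM in uninduced cells and was not called, and nor was the interleukin 33 receptor Il1rl1 (0.10). The 20 tested JAK-STAT genes, which carry the signals of these receptors, had none called by edgeR or DESeq2, none with an unadjusted p under 0.05 and a median of 0.00. Il9r lies at chr11:32187541-32200279 (GRCm38, minus strand), where no other annotated gene overlaps it.

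The other 2 genes called higher were smaller or less stable. Mettl9, a protein histidine methyltransferase at chr7:121034445-121078329, measured 60.5 and 48.0 CPM in induced cells and 29.6 and 38.2 CPM in uninduced cells, a log2 fold change of 0.65 ± 0.14 (edgeR adjusted p = 0.0210). The induced replicates differed from each other by more than the gap between the groups, and the call was lost without induced replicate 1 (0.44) and without uninduced replicate 1 (0.53, adjusted p = 0.259). Igsf6, a gene on the opposite strand within Mettl9, had at most 6 counts in any of the 4 libraries. Egr1, a transcription factor that growth factors and handling switch on within minutes, measured 188 and 213 CPM in induced cells and 165 and 138 CPM in uninduced cells (0.42 ± 0.09, edgeR adjusted p = 0.0432). Its call was lost without induced replicate 1 (0.50, adjusted p = 0.241), induced replicate 2 (0.33) or uninduced replicate 2 (0.27, adjusted p = 0.566). Egr1 levels were higher at each later day in both populations, with 24.1 and 27.0 CPM at day 0, then 105 and 92.7 CPM in induced and 50.1 and 55.5 CPM in uninduced cells at day 2. Of 22 tested immediate early and ERK feedback genes Egr1 was the 1 called, and Ier2, another immediate early gene, had a log2 fold change of 0.27 that did not pass (adjusted p = 0.973). The median of that list was 0.12.

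The beta globin genes Hbb-bs and Hbb-bt, which encode the adult beta chains of hemoglobin and lie next to each other on chromosome 7, were lower in induced cells. Hbb-bs measured 76.4 and 73.7 CPM in induced cells against 131 and 121 CPM in uninduced cells, and the gap between the groups was wider than the spread within either. Its log2 fold change was -0.73 ± 0.11 (edgeR adjusted p = 1.77e-05). Hbb-bt measured 15.7 and 14.9 CPM in induced cells against 32.5 and 29.8 CPM in uninduced cells and fell by 1.00 ± 0.17 on the log2 scale (edgeR adjusted p = 7.17e-04), also without overlap, but its call was lost without induced replicate 1 (-1.05, adjusted p = 0.241) or induced replicate 2 (-0.97, adjusted p = 0.0655). These RNA pools do not show whether fewer cells made globin or each cell held less of it. At day 2 both were lower again, Hbb-bs with 93.6 and 62.7 CPM in induced and 123 and 134 CPM in uninduced cells (-0.66 ± 0.12, edgeR adjusted p = 3.98e-05) and Hbb-bt with 15.1 and 12.9 CPM in induced and 27.8 and 31.9 CPM in uninduced cells (-1.08 ± 0.20, edgeR adjusted p = 1.55e-04). Day 0 cells held 164 and 175 CPM of Hbb-bs and 30.5 and 34.8 CPM of Hbb-bt.

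The 2 transcripts are near copies, so their separate values are uncertain. Of 553 windows of 76 bases, the read length, along the Hbb-bs-201 transcript, 355 (64.2%) occur without a mismatch in Hbb-bt-201, and these are 56.5% of the 628 windows of Hbb-bt-201. No source used here says how reads that match both genes were counted. The windows of 250 bases before the start of both genes and of Rapgef4 and Il9r, from RefSeq on GRCm38.p6, are shown because these are the 4 genes with the smallest adjusted p-values, the globin pair lower and the other pair higher. Each is written 5′ to 3′ on the strand of the gene, and capitals mark the box CACCC, the box CCAAT, the letters GATAA and the letters ATATAA or their reverse complements, short motifs that the adult beta globin promoters are known for.
Hbb-bs (chr7:103827929-103828178, minus strand): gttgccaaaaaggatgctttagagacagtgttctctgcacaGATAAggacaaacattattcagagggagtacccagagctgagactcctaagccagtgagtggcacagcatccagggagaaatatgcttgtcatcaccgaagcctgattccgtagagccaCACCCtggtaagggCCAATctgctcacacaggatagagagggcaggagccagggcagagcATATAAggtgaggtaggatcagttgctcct
Hbb-bt (chr7:103813924-103814173, minus strand): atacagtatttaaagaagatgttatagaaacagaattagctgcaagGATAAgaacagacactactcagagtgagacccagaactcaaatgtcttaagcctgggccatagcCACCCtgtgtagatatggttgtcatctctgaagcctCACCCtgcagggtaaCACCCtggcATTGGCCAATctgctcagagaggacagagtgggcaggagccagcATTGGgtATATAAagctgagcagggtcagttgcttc
Rapgef4 (chr2:71980965-71981214, plus strand): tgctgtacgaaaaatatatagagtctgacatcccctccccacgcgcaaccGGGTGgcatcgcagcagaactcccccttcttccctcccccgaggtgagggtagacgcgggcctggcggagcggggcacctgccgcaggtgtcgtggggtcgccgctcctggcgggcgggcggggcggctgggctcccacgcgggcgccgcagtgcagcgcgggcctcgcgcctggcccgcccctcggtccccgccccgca
Il9r (chr11:32200280-32200529, minus strand): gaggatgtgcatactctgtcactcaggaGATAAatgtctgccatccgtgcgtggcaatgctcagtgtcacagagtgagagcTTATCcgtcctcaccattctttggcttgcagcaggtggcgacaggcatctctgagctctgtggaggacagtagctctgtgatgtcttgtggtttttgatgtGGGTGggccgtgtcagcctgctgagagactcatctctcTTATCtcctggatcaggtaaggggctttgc
The globin windows hold all 4 motifs at like places. In Hbb-bs, GATAA starts 209 bases, CACCC 90 bases, CCAAT 76 bases and ATATAA 30 bases before the RefSeq start, and in Hbb-bt a GATAA starts at 204, a CACCC at 89, a CCAAT at 75 and an ATATAA at 29 bases. Hbb-bt has 3 CACCC and 3 CCAAT in all, counting both strands. Rapgef4 has 1 CACCC and none of the other 3 motifs, and Il9r has 3 GATAA and 1 CACCC. Of 32536 mouse promoter windows of the same length, 52.1% hold CACCC, 33.8% CCAAT, 22.5% GATAA and 9.09% ATATAA on either strand, and none of these matches overlaps another in the 4 windows. These are matches of letters and not sites of binding. RefSeq promoter entries were matched for 6 of the 8 called genes, all but Egr1 and Sec11c.

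Of 22 tested hemoglobin and red cell product genes 2 were called lower, Hbb-bs and Hbb-bt, and none was called higher. At an unadjusted p under 0.05 there were 6 lower and none higher, beside 4.61% of all tested genes in either direction, and the median was -0.09. The 4 that missed the adjusted threshold were Hba-a1, Slc4a1, the membrane skeleton gene Epb42 (-0.35) and the water channel gene Aqp1 (-0.39). The alpha globin gene Hba-a1 measured 131 and 132 CPM in induced cells against 185 and 158 CPM in uninduced cells, in the same direction as the beta genes, but missed the threshold (-0.36, edgeR adjusted p = 0.138), and at day 2 it was called (-0.69, adjusted p = 1.70e-07). Slc4a1, the anion exchanger of the red cell membrane, measured 1.57 and 6.06 CPM in induced cells and 8.68 and 7.66 CPM in uninduced cells, and its wide log2 fold change of -1.22 did not pass (adjusted p = 0.356). Of 13 heme synthesis genes none was called by edgeR or DESeq2, 1 had an unadjusted p under 0.05 and the median was -0.05; this was Alas2, the red cell form of the first enzyme of heme synthesis, which measured 6.89 and 5.60 CPM in induced cells and 10.0 and 11.9 CPM in uninduced cells (-0.83, adjusted p = 0.678). None of 17 regulators of the red cell and platelet lineages was called by edgeR or DESeq2 at day 4 and 1 had an unadjusted p under 0.05, with a median of -0.03. Among these, Gata2 had 164.8 and 160.9 CPM in induced cells and 154.5 and 152.4 CPM in uninduced cells at day 4, whereas at day 2 it had 147 and 136 CPM in induced cells and 236 and 207 CPM in uninduced cells, and the effects of the days differed (0.71 on the log2 scale, edgeR adjusted p = 3.79e-04). Hba-a1, Slc4a1, Epb42, Aqp1, Alas2 and Gata2 were singled out after their values were seen.

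Slc26a1 and Sec11c completed the genes lower in induced cells. Slc26a1, a transporter of sulfate and oxalate at chr5:108669878-108675569, measured 59.5 and 64.3 CPM in induced cells and 86.5 and 87.3 CPM in uninduced cells (-0.50 ± 0.11, edgeR adjusted p = 0.0429). Its groups did not overlap, yet it lost its call when any 1 of the 4 libraries was left out, with log2 fold changes between -0.54 and -0.44 and adjusted p-values of 0.101 or more. Idua, the gene that overlaps it on the opposite strand, had 26 and 14 counts in induced and 31 and 95 counts in uninduced cells and was not called (-0.26 ± 0.28). Sec11c, a catalytic subunit of the signal peptidase that trims secreted proteins, measured 147 and 136 CPM in induced cells and 179 and 199 CPM in uninduced cells (-0.42 ± 0.09, edgeR adjusted p = 0.0210). That call was lost without induced replicate 1 (-0.49, adjusted p = 0.253), induced replicate 2 (-0.37, adjusted p = 0.770) or uninduced replicate 2 (-0.34, adjusted p = 0.366). The genes just beyond the threshold were Vim, Sdsl, Baz2a, Adra2a and Maged1, with edgeR adjusted p-values of 0.0764 to 0.11 and log2 fold changes of 0.31, -0.71, -0.37, 0.77 and -0.55.

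Induced cells with the Ogdh hairpins, sorted at the same day, give 4 further libraries in which the 8 genes can be read, as a description with no test. The day 4 control libraries they are set against are those in which the 8 genes were called, so likeness or unlikeness is not an independent check. The series holds no uninduced cells with an Ogdh hairpin, so loss of Ogdh cannot be told apart from induction in them. Rapgef4 measured 67.1 and 52.2 CPM in shOgdh346 cells and 63.6 and 66.1 CPM in shOgdh2081 cells, all above the 29.8 and 33.8 CPM of uninduced control cells. Il9r measured 70.4 and 67.6 CPM in shOgdh346 cells and 62.5 and 64.4 CPM in shOgdh2081 cells, also above both uninduced control libraries. The other 6 genes did not stand at the level of induced control cells. Hbb-bt measured 38.3 and 38.5 CPM in shOgdh346 cells and 30.7 and 34.5 CPM in shOgdh2081 cells, where induced control cells had 15.7 and 14.9 CPM. Hbb-bs measured 125.8 and 128.4 CPM in shOgdh346 cells and 83.3 and 94.6 CPM in shOgdh2081 cells, all above both induced control libraries. Egr1 averaged 64.0 CPM in shOgdh346 cells and 56.3 CPM in shOgdh2081 cells, below both control populations of day 4, and Mettl9, Slc26a1 and Sec11c likewise lay outside the range of the 2 induced control libraries.

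**Figure D2:**
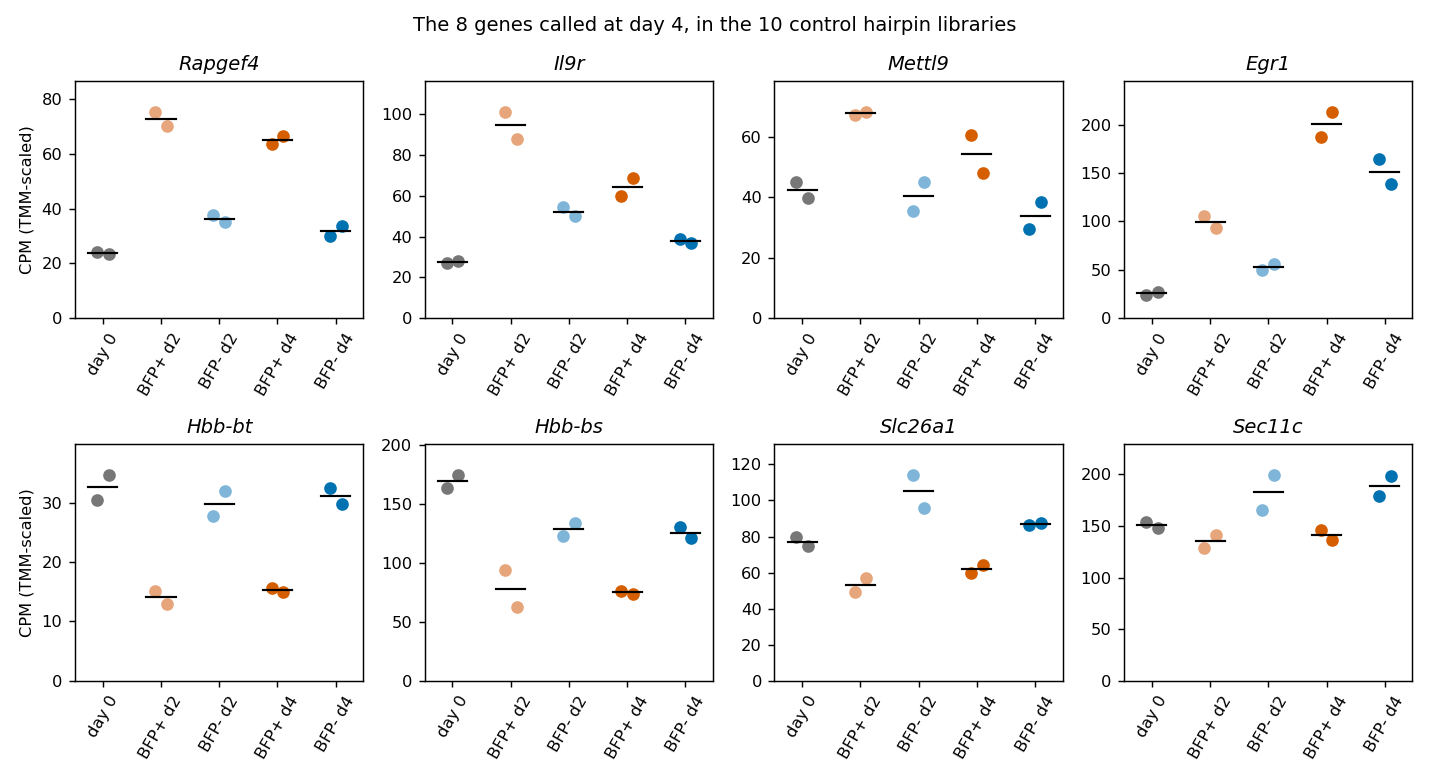
Level in CPM (vertical axes, from 0) of the 8 genes called at day 4 in each of the 10 control hairpin libraries; points are libraries, bars are means of 2, and groups run by day with induced (BFP+) left of uninduced (BFP-) cells. Rapgef4 and Il9r lie higher and Hbb-bs and Hbb-bt lower in induced than in uninduced cells at both days, and Egr1 stands higher at day 4 than at day 2 and day 0 in both populations.

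How little else differed can be read from the intervals of the fold changes. The 95% interval lay within 1.5-fold either way for 7966 of 10791 genes (73.8%) and within 2-fold for 9631 (89.3%). It lay wholly beyond 1.5-fold for 6 genes and wholly beyond 2-fold for 1. Of the 8 called genes only Rapgef4 and Hbb-bt had an interval wholly beyond 1.5-fold, and none had one wholly beyond 2-fold. The rest of the genes in these counts were not called. Estimates lay past 1.5-fold for 349 genes (3.23%) and past 2-fold for 60 (0.556%). The estimates themselves spanned -0.37 to 0.30 on the log2 scale between the 5th and 95th percentiles. Precision followed the level of the gene. Of 2748 genes over 100 CPM, 99.9% had an interval within 1.5-fold, and of 4717 genes between 20 and 100 CPM, 95.8% had. The share was 32.8% of 2155 genes between 5 and 20 CPM and 0% of 1171 genes under 5 CPM. In the last group the interval reached a median of 0.91 on the log2 scale to each side, so differences there were not bounded within 1.5-fold. All 8 called genes lay above 20 CPM, 5 of them between 20 and 100 CPM and 3 above 100 CPM.

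**Figure D3:**
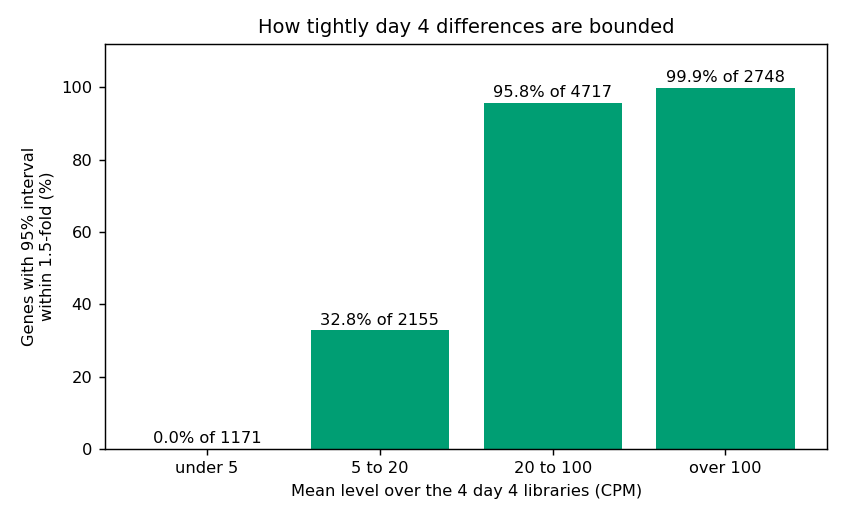
Share of tested genes (vertical axis, percent) whose 95% interval of the day 4 fold change lies within 1.5-fold either way, in 4 classes of mean level (horizontal axis, CPM over the 4 day 4 libraries). The share is 0% under 5 CPM, 32.8% from 5 to 20 CPM, 95.8% from 20 to 100 CPM and 99.9% over 100 CPM.

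At day 4, libraries of different groups were about as alike as replicates when compared at a low common depth. Counting noise at that depth is part of every SD given here, and its share was not measured. With every library thinned to 1500031 counts, the SD over 2728 genes of the log2 difference between an induced and an uninduced day 4 library was 0.139 to 0.163 for the 4 such pairs. Between replicates it was 0.138 for the induced pair and 0.166 for the uninduced pair, so the ranges of pairs between and within groups coincide. At day 2 the pairs between groups had SDs of 0.195 to 0.240, above both replicate pairs (0.166 for induced and 0.188 for uninduced cells). Uninduced replicate 1 stood apart at day 4 in 6 genes that were chosen after their values were seen, CT010467.1, Gm26917, Gm23935, Mir6236, Gm15564 and Lars2. Together they held 543 and 420 whole-library CPM in the induced replicates against 1063 and 434 CPM in the uninduced replicates. Uninduced replicate 1 was the highest at day 2 too, when the sums were 808 and 640 CPM in the induced replicates against 1066 and 597 CPM in the uninduced replicates. The mitochondrial gene mt-Nd1 was lower in that library, with 4258 and 4151 CPM in induced against 3157 and 4196 CPM in uninduced cells. When uninduced replicate 2 was left out, so that uninduced replicate 1 alone stood for its group, 16 genes were called, including these 6 and mt-Nd1, and 5 of the 8 genes remained among them. None of the 6 was among the 8 genes called by edgeR or the 3 called by DESeq2. Gm23935 and CT010467.1 were called by edgeR without the filter on low counts, in a fit of the compared groups alone and in a fit of the control libraries with a replicate block, and Gm23935 also with a replicate block in the fit of all libraries and with libraries thinned. The part of this library's difference in the results was not tested.

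Gene lists written for what a hairpin, a vector, doxycycline or a sort might touch held few called genes. Of 682 tested genes on the lists 5 were called, and 37 (5.43%) had an unadjusted p under 0.05, beside 4.61% of all tested genes. Of 32 lists with a tested member, 28 had none called by edgeR or by DESeq2. Of the 30 lists with at least 5 tested members, 28 had a median within 0.1 of 0 on the log2 scale. Of 17 genes of small RNA processing, which handle the hairpin, none was called, 2 had an unadjusted p under 0.05 and the median was -0.01. These 2 were Drosha, the nuclease that releases hairpins in the nucleus, at 200 and 231 CPM in induced and 249 and 243 CPM in uninduced cells (-0.20), and the Argonaute gene Ago3 (-0.43). Of 26 genes that silence integrated proviruses none was called, 1 had an unadjusted p under 0.05 and 25 had an interval within 1.5-fold; that 1 gene, the DNA methyltransferase Dnmt3b, had a log2 fold change of -0.69 (unadjusted p = 0.0147, edgeR adjusted p = 0.953). Of 35 interferon response genes, which answer double-stranded RNA, 18 could be tested. None of these was called at an adjusted or an unadjusted p under 0.05, and the median was -0.02. Only 10 of the 18 (55.6%) had an interval within 1.5-fold, so moderate differences in the rest are not bounded. At day 2 the list had 3 genes called lower, none called higher and a median of -0.26. Eif2ak2, the kinase that double-stranded RNA activates, measured 89.9 and 91.9 CPM in induced cells and 86.8 and 92.6 CPM in uninduced cells. Drosha, Ago3 and Dnmt3b were singled out after their values were seen, and DESeq2 called no gene of these 3 lists.

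The lists of cell division, ribosome, energy and p53 genes held no called gene, and their precision differed. All 30 tested mitosis genes, all 30 ribosome biogenesis genes, all 47 cytosolic ribosomal protein genes and all 22 genes of the TCA cycle list had intervals within 1.5-fold; none was called by edgeR or DESeq2, and none had an unadjusted p under 0.05. The topoisomerase Top2a measured 1357 and 1377 CPM in induced cells and 1276 and 1346 CPM in uninduced cells. Of 36 DNA replication genes, led by the helicase subunit Mcm6 (713 and 698 CPM in induced and 705 and 725 CPM in uninduced cells), none was called and 1 had an unadjusted p under 0.05. Of 55 nuclear genes of the respiratory chain 54 had an interval within 1.5-fold. Of 10 tested mitochondrial genes none was called at day 4 (median 0.14), and 7 were called higher at day 2 (median 0.36). Mitochondrial genes held 2.78% and 2.76% of counts in the induced and 2.29% and 2.82% in the uninduced day 4 libraries. Uninduced replicate 1 was thus the lowest, and its part in the day 4 median was not tested. Of 32 genes of glycolysis and hypoxia none was called, 23 (71.9%) had an interval within 1.5-fold, and 4 had an unadjusted p under 0.05, all toward higher in induced cells: Aldoa (0.33, edgeR adjusted p = 0.177), Ldha (0.23, adjusted p = 0.632), Pdk1 (0.35, adjusted p = 0.943) and Pgk1 (0.22). Aldoa, which encodes the aldolase of glycolysis, measured 349 and 340 CPM in induced cells and 292 and 261 CPM in uninduced cells. Of 18 p53 target genes none was called, 11 (61.1%) had an interval within 1.5-fold, 3 had an unadjusted p under 0.05, in mixed directions, and the median was 0.08. DESeq2 called no gene of the DNA replication, respiratory chain, glycolysis or p53 lists either. The counts of these lists at an unadjusted p under 0.05 stand beside 4.61% of all tested genes in either direction. The altered genes of the line were alike in both groups: Trp53 had 284 and 277 CPM in induced cells and 286 and 263 CPM in uninduced cells, Kmt2c 119.7 and 136.6 CPM in induced cells and 131.2 and 134.9 CPM in uninduced cells, and Nf1 56.4 and 56.4 CPM in induced cells and 59.9 and 64.7 CPM in uninduced cells. Ogdh, the target of the other hairpins of the series, had 247 and 267 CPM in induced cells and 240 and 230 CPM in uninduced cells (0.13 ± 0.08) and was not called.

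The list with the lowest median was that of clustered histone genes, whose transcripts mostly lack a polyA tail and are poorly captured by polyA selection. Of 11 tested members none was called by edgeR or DESeq2, and the median was -0.31. At an unadjusted p under 0.05 there were 5, all toward lower in induced cells, beside 4.61% of all tested genes in either direction. Hist1h1c, a linker histone, measured 77.7 and 74.6 CPM in induced cells and 90.6 and 90.1 CPM in uninduced cells (-0.24 ± 0.10). Both its induced libraries stood below both uninduced libraries, as for 16.7% of all tested genes. At day 2 Hist1h1c measured 96.4 and 87.9 CPM in induced cells and 68.5 and 74.4 CPM in uninduced cells. That difference was in the other direction (0.37 ± 0.12, edgeR adjusted p = 0.0377), and the list's median at day 2 was 0.30. The day 4 and day 2 effects differed for Hist1h1c (-0.61 ± 0.16, edgeR adjusted p = 0.0343) and for the core histone gene Hist1h2bc (adjusted p = 0.00332), and for no other tested member.

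**Figure D4:**
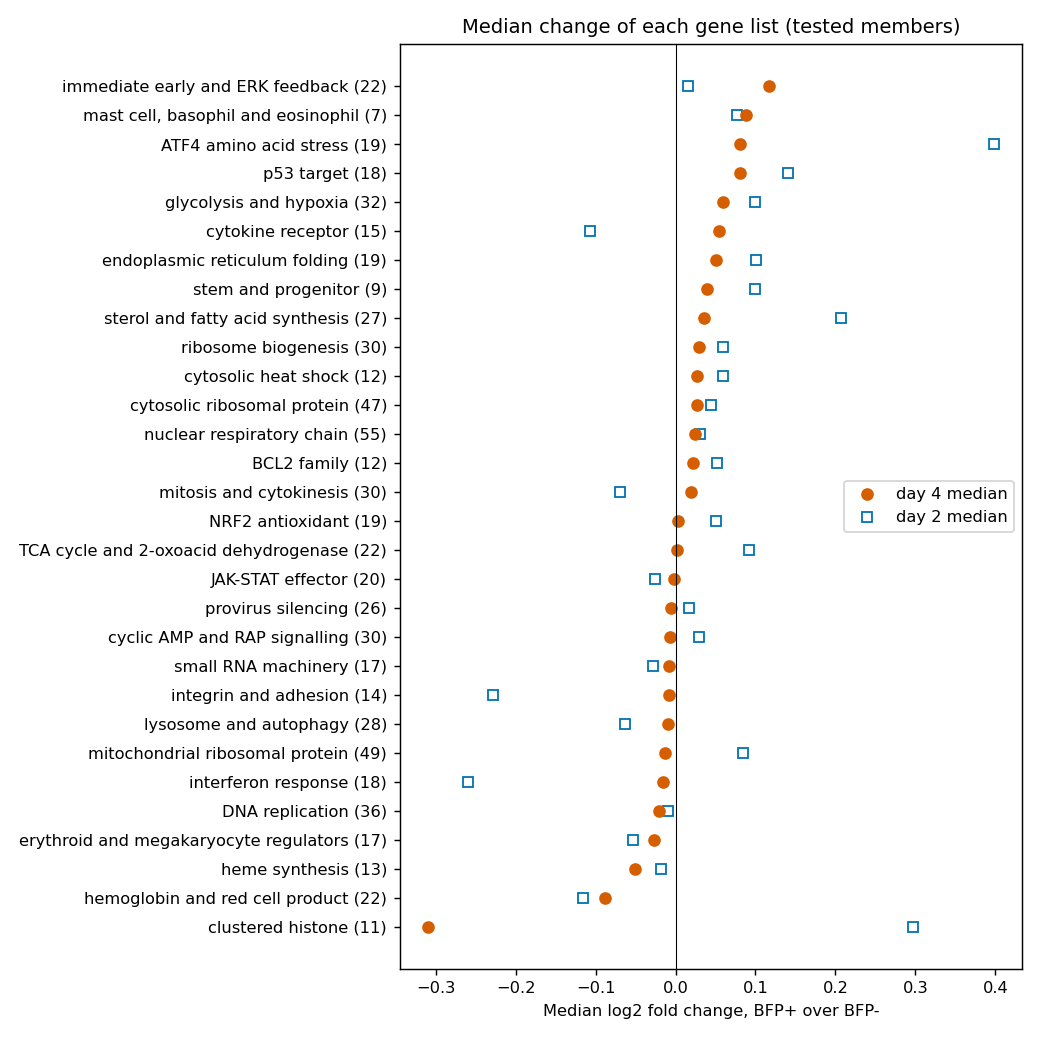
Median log2 fold change of induced over uninduced cells (horizontal axis) for the 30 gene lists with at least 5 tested members, given in brackets; filled circles are day 4 and open squares day 2. At day 4 the medians lie between -0.31 and 0.12 and 28 are within 0.1 of 0; at day 2 they lie between -0.26 and 0.40 and 21 are within 0.1 of 0.

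At day 2 the same comparison had called 672 genes (6.23%), and 18.9% of genes had an unadjusted p under 0.05. Without induced replicate 1 of day 2 the count was 228 and without uninduced replicate 1 of day 2 it was 413. The 95% interval lay within 1.5-fold for 60.6% of genes. All 8 genes called at day 4 were among the 672 and in the same direction, which is 100% of the day 4 calls and 1.19% of the day 2 calls. The day 2 and day 4 contrasts share no library, though they share the model's estimate of the spread, and their same-numbered libraries were not all unrelated: deviations from the group mean correlated at 0.305 over 7486 genes between the uninduced libraries of the 2 days and at 0.226 between day 4 uninduced and day 2 induced libraries. Of the 672 genes, 520 (77.4%) had the same sign at day 4, against 56.5% of the 10119 genes not called at day 2. Their median log2 fold change at day 4, counted in the day 2 direction, was 0.10, where the median size at day 2, the value they were chosen by, was 0.58. At day 4, 98 of them had an unadjusted p under 0.05 in the day 2 direction and 5 against it. The day 2 libraries held 3008718 and 1500031 counts in induced cells and 2342968 and 4342673 counts in uninduced cells, and with the day 4 libraries thinned to 1500031 counts 3 genes were called at day 4.

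**Figure D5:**
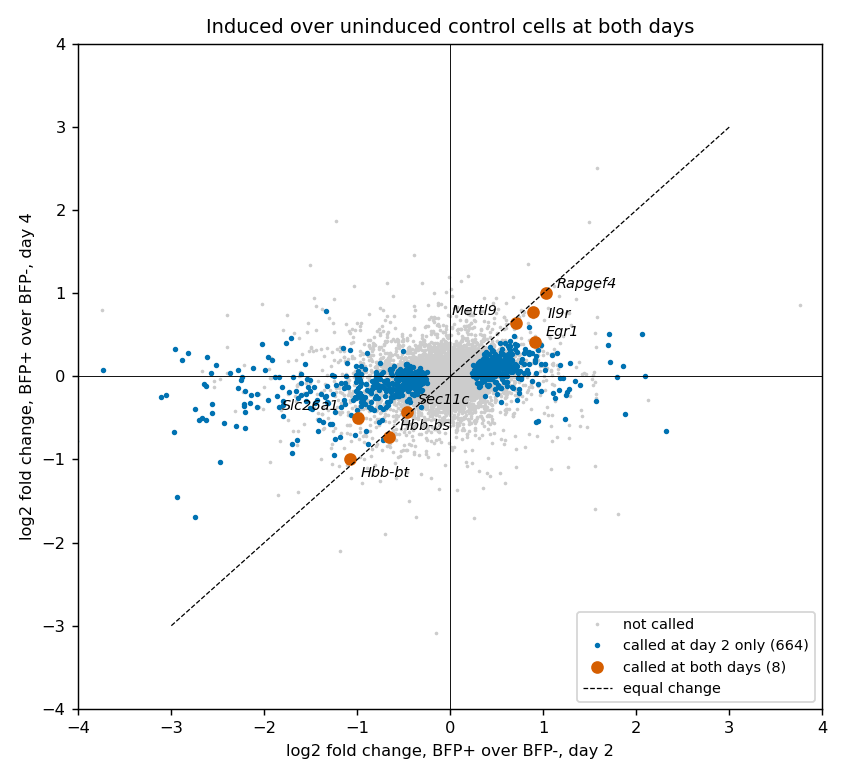
Log2 fold change of induced over uninduced control cells at day 4 (vertical axis) against day 2 (horizontal axis) for tested genes, 4 of which lie outside the axes. Orange points are the 8 genes called at both days, blue points the 664 called at day 2 only and the dashed line marks equal change; most blue points lie closer to 0 at day 4, and the orange points lie near the dashed line, with Egr1 and Slc26a1 nearest to 0 at day 4 relative to day 2.

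A test of the difference between the days called 71 genes (0.658%), 45 with the day 4 effect above the day 2 effect and 26 with it below. The count was 31 without induced replicate 1 of day 4, 47 without induced replicate 2 of day 4 and 30 without induced replicate 1 of day 2. All 71 had been called at day 2, and 58 of them had an unadjusted p of at least 0.05 at day 4. None of the 8 genes called at day 4 was among them; for Egr1 the difference was -0.50 (edgeR adjusted p = 0.159) and for Slc26a1 0.49 (adjusted p = 0.213). The smallest adjusted p belonged to Vim, an intermediate filament gene, with 492 and 502 CPM in induced against 406 and 395 CPM in uninduced cells at day 4, and 241 and 236 CPM in induced against 333 and 346 CPM in uninduced cells at day 2. Its log2 fold change was 0.31 ± 0.07 at day 4, just short of the threshold (edgeR adjusted p = 0.0764), and -0.51 ± 0.08 at day 2 (adjusted p = 8.18e-06), so the directions were opposite. For Scd1, a fatty acid desaturase, induced cells had 84.3 and 86.7 CPM against 87.0 and 93.3 CPM in uninduced cells at day 4, but had 142.9 and 130.2 CPM against 73.7 and 70.7 CPM at day 2. Apoe, a lipid carrier, had 66.1 and 62.5 CPM in induced and 85.9 and 70.3 CPM in uninduced cells at day 4, but 51.0 and 54.5 CPM in induced and 138.3 and 127.1 CPM in uninduced cells at day 2. A further list held amino acid synthesis and transport genes under ATF4, the transcription factor of the integrated stress response. Of its 19 tested genes none was called at day 4 (median 0.08), none had an unadjusted p under 0.05, and 12 were called higher at day 2 (median 0.40). Calls at 1 day and not the other do not show that the days differ, and the test of the difference called 1 of the 19. Asns, the asparagine synthetase of that list, measured 851 and 827 CPM in induced cells and 860 and 849 CPM in uninduced cells at day 4, against 1126 and 1004 CPM in induced and 845 and 922 CPM in uninduced cells at day 2. The difference between the days for Asns was -0.30 and was not called (edgeR adjusted p = 0.213). The 1 gene of the list for which the test called a difference between the days was Cth (edgeR adjusted p = 0.00736).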

How the data were processed

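Raw counts of reads per gene for 14 libraries were deposited by the authors as 1 table, with a transcript length in bases for each gene (another unit, also deposited by the authors and not used in any test). Per the labels' protocols, polyA RNA was made into TruSeq libraries and sequenced in single-end reads of 76 bases. Per the submitters' processing notes, reads were checked with FastQC 0.11.5, trimmed with Trimmomatic 0.36, aligned with STAR 2.6.1a and counted with featureCounts 1.6.3 (builds mm10 and GRCm38), whereas the labels' protocols name HTSeq, a human build and an RPKM matrix. The table holds mouse genes, and 51335 of 53274 genes shared with GENCODE M21 (96.36%) have the same GRCm38 coordinates. No source used here gives strand or multi-mapping settings.

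Groups were taken from titles. Counts were filtered with filterByExpr over 7 groups, scaled by TMM factors (0.968 to 1.01) and tested with edgeR 4.0.16 in R 4.3.3 in 1 model of all 14 libraries (common biological coefficient of variation 5.04%), two-sided. The code was run on counts simulated with the model's own spread, which cannot show whether the real libraries keep to that model. DESeq2 1.42.0, other filters, scalings, samples, depths, a replicate block and leaving out each replicate were tried. An exact permutation test of 2 against 2 cannot go below 0.333, so none was used. Intervals cover the spread of the model; a count of 0 allows up to 3 counts, for counting error only. Replicate counts differed by more than sampling noise (chi-square per degree of freedom 1.25 for induced and 2.81 for uninduced day 4 cells). Named genes were the called genes, those nearest the threshold on each side, up to 10 genes that differ between days, the altered genes, and of each list the called members or, with none, the member with the highest mean level. The gene lists, the naming rule and the genes given as markers were chosen with earlier results of these data known. Lists were described by counts and medians, with no set test.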

Additional observations from a re-analysis of the deposited data

Results flagged for a closer look

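Tests of the difference between the day 4 and day 2 effects of induction stood out for 71 genes, and the values of the genes with the smallest adjusted p-values are given as day 4 minus day 2 log2 fold changes. Genes whose day 4 effect was above the day 2 effect were Vim (0.82), Hap1 (1.33), Cela1 (0.81), Cpne5 (2.55), Apoe (1.09), C1s1 (1.71) and Hook1 (1.70). All 7 had been lower in induced cells at day 2. At day 4 Vim was 0.31 higher and C1s1 0.15 higher in estimate, and the other estimates lay between -0.37 and -0.09. Genes whose day 4 effect was below the day 2 effect were Scd1 (-1.03), Dock10 (-1.40) and Yap1 (-1.86), each called higher at day 2. Their day 4 estimates were -0.09, -0.06 and -0.30. Hist1h1c (-0.61) was not among the 10 smallest adjusted p-values and was named as a list member. None of these 11 genes was called at day 4 by edgeR or DESeq2.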

How the results depend on the processing

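The 8 genes kept their direction under all 14 alternatives that gave a fold change. Rapgef4 (0.85 to 1.12) and Hbb-bs (-0.83 to -0.69) passed under each of them; Il9r passed in 11 of 14, Hbb-bt in 10, Mettl9 in 9, Sec11c in 7 and Egr1 and Slc26a1 in 6 each. The day 4 count of 8 became 3 with DESeq2, 16 in a fit of the compared groups alone, 5 in a fit of the 10 control libraries, 5 with libraries thinned, 3 thinned to the smallest day 2 library (chosen after seeing the data) and 4 at an adjusted p under 0.01. Leaving out 1 library gave 3 to 16. The day 2 count of 672 became 223 with DESeq2 and 396 with libraries thinned, and 228 to 624 without 1 library. The 71 genes that differ between days became 22 with DESeq2 and 32 with libraries thinned, and 30 to 90 without 1 library. The causes were not tested. The number of genes with a day 4 interval within 1.5-fold stayed between 6000 and 8031. No called value reversed. Of 728 values of named genes under alternatives, 35 lost and 7 gained a call. A replicate block gave 9 genes at day 4 in the fit of all samples and 10 in that of the control libraries, with all 8 among them in both. At day 2 it gave 723 and 753, and for the difference 83 and 81. Deviations of same-numbered libraries correlated over genes at 0.0079 for induced and uninduced day 4 cells, at 0.305 for uninduced cells of day 4 and day 2, at 0.226 for day 4 uninduced and day 2 induced cells and at -0.119 for day 4 induced and day 2 uninduced cells; not every pair passed 0.1, so the numbers were not taken as pairs. Without 1 library, the one left in its group is assumed to vary like the other groups. Depth limits genes under 20 CPM.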
